A study of Mus musculus with 40 samples.

Results

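Wide distal H3K27ac regions that overlap H3K4me1 are described here in small pre-B cells, the resting stage of B cell development at which light chain genes recombine. The members were selected on the deposited region tables, with 3 criteria: a width of at least 500 bp, a smallest distance to a gene of more than 2000 and at most 200000 bp, and at least 1 bp shared with a merged H3K4me1 region. Of 240561 H3K27ac regions (mm9 coordinates), 6217 were wide enough. Of these, 1190 lay at promoters and 546 lay farther out or had no gene distance, which left 4481 distal regions. A further 156 had no H3K4me1 region, so 4325 members remained, or 1.8% of all H3K27ac regions. Width, gene distance and H3K4me1 overlap chose the members and are given as description only. The change between genotypes was not part of the choice, although a region could enter the tables through signal in either genotype.

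The series profiled 7 targets by ChIP-seq: the histone marks H3K27ac and H3K4me1, the insulator factor CTCF, and NIPBL, RAD21, SMC3 and WAPL, which load, form or release the cohesin ring. Primary small pre-B cells were flow-sorted from the bone marrow of wild-type (WT) or Brwd1 knockout (KO) mice, and another group of WT cells received 126 nM oligomycin for 2 h, an inhibitor of mitochondrial ATP synthase (the ATP-depleted group, with cohesin-related targets only). Each labelled group held 2 biological replicates, giving 36 ChIP libraries beside 4 input libraries. Strain, age and the number of mice behind a library are not given in the labels. Whether the KO mice lack BRWD1 in every tissue is likewise not stated there. The p-values below measure the spread between such pairs of libraries. In bulk chromatin, fewer cells of a type and less signal per cell cannot be told apart.

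H3K4me1 is laid down by the MLL3 and MLL4 methyltransferases at enhancers, including those that are only poised. H3K27ac is added by p300 and CBP and marks enhancers and promoters in use, and long acetylated stretches near lineage genes are often called stretch or super enhancers. BRWD1 is a bromodomain and WD repeat protein that reads acetylated histones and is required in small pre-B cells for late B cell development.

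Several labels of the histone libraries did not match each other, and this precedes every result below. The genotype tag of the KO H3K27ac and H3K4me1 libraries reads WT, although title and description call them knockout; groups here follow the titles. Names of peaks inside the lists filed under H3K27ac KO carry the H3K4me1 stem without a knockout suffix, and the names inside those filed under H3K4me1 WT carry the H3K27ac knockout stem. The lists filed under NIPBL KO replicate 2 and NIPBL WT replicate 1 carry each other's names. In the count tables, log2 CPM (counts per 1e6 reads in regions) at members correlated at r = 0.96 to 0.961 between H3K27ac WT and KO libraries and at 0.949 between H3K4me1 WT and KO libraries. Between marks r was 0.823 to 0.887 (3064 members that pair with a single H3K4me1 region, which share library, depth and base composition). Where input was low (1179 members), these values were 0.843 to 0.849 and 0.816 to 0.82 within a mark and 0.309 to 0.515 between marks. At 6876 promoters with both marks the order differed: the H3K4me1 KO libraries correlated at 0.849 to 0.852 with H3K27ac WT and at 0.823 to 0.824 with H3K27ac KO, but at 0.797 to 0.799 with H3K4me1 WT. At 1190 wide promoter regions, peaks lay at 82.9% and 86% in the H3K27ac WT lists and 24.7% and 25% under H3K27ac KO. They lay at 97.5% and 96.7% under H3K4me1 WT and 33.4% and 34.6% under H3K4me1 KO. By peak name, the high shares belong to H3K27ac lists and the low shares to H3K4me1 lists. Whether the labels or the peak names are right was not tested, so histone differences between WT and KO below may include differences between marks. No library was regrouped, and WT and KO below mean the libraries so labelled.

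Library depth and cell markers were as follows. Reads in regions were 21859316 to 28358008 for H3K27ac, where 1 CPM stands for 21.9 to 28.4 reads, and 16048349 to 26637928 for H3K4me1. KO libraries were shallower than WT for NIPBL (3784506 to 3803369 against 16916106 to 17681215), RAD21 (7194434 to 7415143 against 21848632 to 24962590) and SMC3 (4010016 to 4242112 against 15416715 to 17667209). CTCF WT replicate 2 had 17055094 reads against 3880112 to 5033230 in the other CTCF libraries. Promoter H3K4me1 was present at 9 of 9 B lineage marker genes (summed 366 and 374 CPM in WT, 218 and 210 in KO) and at 3 of 7 T cell genes (3.94 to 5.89). Housekeeping promoters differed likewise, with summed H3K4me1 of 248 and 249 CPM in WT and 124 and 126 in KO. All promoter regions together took 8.81% and 8.93% of H3K4me1 reads in WT and 6.7% and 6.71% in KO. Promoter H3K27ac was weak even at housekeeping genes, with a region at 10 of 18. Summed H3K27ac over the housekeeping promoters was 20.5 and 19.6 CPM in WT and 26.7 and 29 in KO. Promoters of 6 erythroid marker genes summed to 109 and 113 CPM of H3K27ac in WT and 98.3 and 104 in KO, nearly all at the globin gene Hbb-b1, above the B lineage sum of 48.1 to 52.5. Their H3K4me1 summed to 105 and 108 CPM in WT and 93.7 and 91.6 in KO, and the part of such cells in the results was not tested.

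The members were short for enhancer domains. Their median width was 657 bp (quartiles 558 and 879, maximum 10634) against 148 bp over all H3K27ac regions, and their median gene distance was 28000 bp (quartiles 11500 and 63500). Most lay inside a gene body (2931 of 4325, 67.8%), and the nearest genes numbered 2854. H3K4me1 covered at least 50% of the length of 4050 members (93.6%) and the whole of 1710. At the width limit, Sox11 and Tssc1 members measured 500 bp, while regions near Aox3 and Sccpdh measured 499 bp and stayed out. At the near limit a member 2022 bp from Bbc3 was in, and regions 1992 bp from Gm6116 and 1987 bp from Brd2 were out. The farthest members were 199463 bp from Nrsn1 and 198973 bp from Actr3. The WT and KO values of regions on either side of a limit did not set them apart: log2 fold changes were 0.06 and -0.33 for Sox11 and Tssc1, 0.21 and -0.21 for Aox3 and Sccpdh.

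Members were divided by input density at 100 reads per kb, a limit chosen after seeing the data. Input density is the number of WT input reads per kb in the densest region of the 5 factor tables (CTCF, NIPBL, RAD21, SMC3, WAPL) that a member overlaps, since the histone tables' own input was not used. Of the 4325 members, 2403 overlapped such a region and had a value, with medians of 400 WT and 420 KO input reads per kb and a maximum of 306000 in WT. For comparison, the median WT input density over all regions was 193 in the NIPBL table, 119 in WAPL, 88.4 in CTCF, 32.8 in RAD21 and 21.2 in SMC3. Input was over 100 reads per kb at 2167 members (50.1%), called dense-input members here, and over 1000 at 543. The other 2158 members, called low-input, comprised 236 with a value up to 100 and 1922 that overlapped no factor region and so had no value. A member without a value is therefore also one without a factor region, so factor signal is not compared between the classes.

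H3K27ac level followed the input. Median H3K27ac in the WT libraries was 2.59 and 2.57 CPM per kb at members with no input value, 3.19 and 3.34 at those up to 100, 14.7 and 14.8 between 100 and 1000, and 76.2 and 77.1 above 1000. The KO medians in the same order were 3.21 and 3.23, 3.86 and 3.91, 12.4 and 12.5, and 60.7 and 61.0. In each of the 2 low-input classes both KO libraries exceeded both WT libraries, and in each of the 2 dense classes both fell short of them. Dense-input members took 7.22% and 7.27% of all H3K27ac reads in WT and 6.25% and 6.28% in KO. Low-input members took 0.797% and 0.796% in WT and 0.903% and 0.896% in KO. Whether the acetylation signal at dense-input members exceeds what their input alone would give was not tested.

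Across the genome 5.9% of 235173 tested H3K27ac regions were called higher in KO and 10.6% lower (edgeR's quasi-likelihood test, Benjamini-Hochberg adjusted p under 0.05). All 4325 members were tested. Of them, 710 were higher (16.4%) and 1482 lower (34.3%); the median log2 fold change was -0.12 at members and 0.02 over all regions. Of the 818 members of at least 1000 bp, 29.0% rose and 25.8% fell, with a median of 0.03. The 2 input classes moved apart. Of 2167 dense-input members 145 rose (6.69%) and 1215 fell (56.1%), with a median of -0.26. Of 2158 low-input members 565 rose (26.2%) and 267 fell (12.4%), with a median of 0.12. Most shifts were small: 264 low-input members rose and 57 fell by at least 1 on the log2 scale, against 65 and 37 dense-input members.

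**Figure D1:**
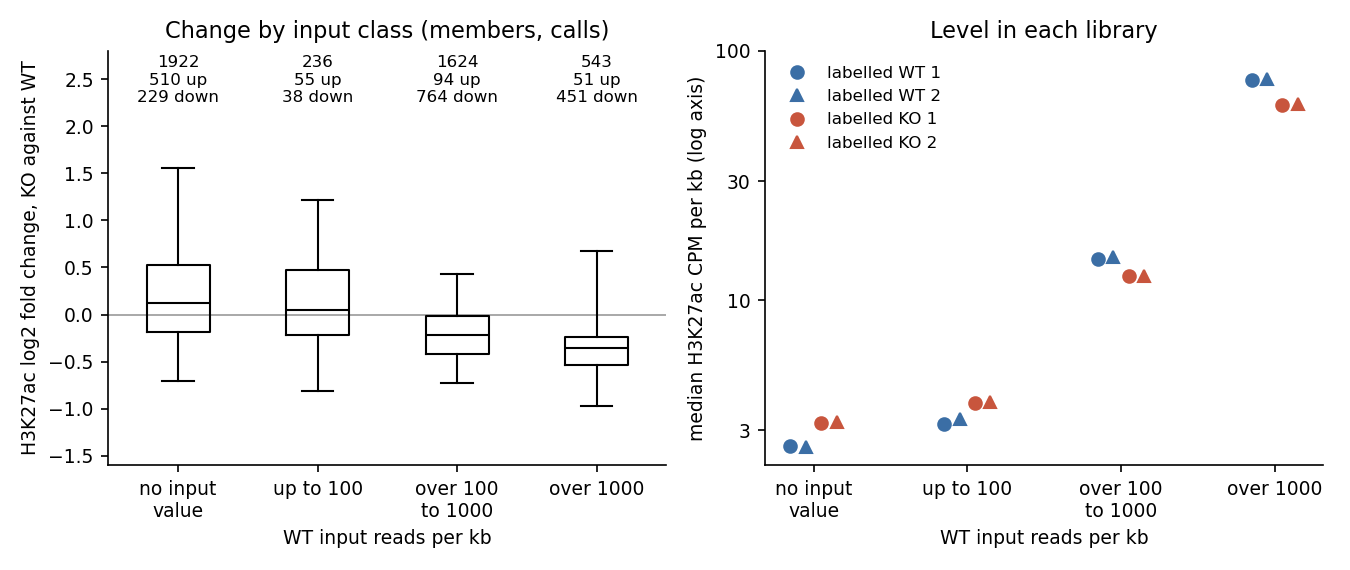
Left, log2 fold change of H3K27ac (KO over WT) by input class, with boxes at the quartiles, whiskers at the 5th and 95th percentiles and the numbers called higher and lower printed; right, median H3K27ac level per library in CPM per kb on a log axis. The medians of the low-input classes lie above 0, with 510 and 55 members called higher. Those of the dense classes lie below it, with 764 and 451 called lower.

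The direction at low-input members depended on how the libraries were scaled, and that at dense-input members did not in the settings run. Scaling to background regions moved the median of all regions from 0.02 to -0.17 and gave 410 higher and 507 lower low-input members (median -0.07, still above the median of all regions). Input-subtracted counts gave 430 higher and 432 lower. Scaling to library totals gave 699 and 182, and DESeq2 236 and 70. At dense-input members 818 to 1602 were lower and 105 to 198 higher over the same settings. Of the 565 low-input members called higher, 236 kept the call under DESeq2, background scaling and library totals alike, and 333 kept it with each library left out in turn.

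Width and position changed the picture little among low-input members. The share called higher was 24.9% at 500 to under 1000 bp (393 of 1581), 29.6% at 1000 to under 2000 bp (144 of 486) and 30.8% from 2000 bp (28 of 91), and the share called lower 10.7%, 17.3% and 15.4%. By gene distance, 29.2% rose within 10 kb (166 of 568), 27% between 10 and 50 kb (276 of 1024) and 21.7% beyond 50 kb (123 of 566). Inside gene bodies 431 of 1535 rose (28.1%) and outside 134 of 623 (21.5%). These classes share libraries and were not tested against each other.

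The contrast with other H3K27ac regions was set out by input as well, with regions that had no input value counted as low-input. Narrow distal regions with H3K4me1 were called higher in 4610 and lower in 3428 of 66849 where input was low (6.9% and 5.13%, median 0.09) and in 1945 and 10723 of 47456 where it was dense (4.1% and 22.6%, median -0.10). The wide members thus had the same signs with larger called shares, and narrower regions also have fewer reads to test. Wide regions at promoters went the other way from low-input members: 108 rose and 590 fell of 1033 low-input promoter regions (10.5% and 57.1%), with a median of -0.86. The 156 wide distal regions without H3K4me1 had 21 higher and 22 lower.

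Named members were chosen by a fixed rule of size, run over all members and again among low-input members because dense input filled most places of the first list. Near Arid3a, a transcription factor that binds the immunoglobulin heavy chain locus, a member of 2266 bp (chr10:79400711-79402976) had 1.87 and 2.09 CPM in WT and 7.35 and 7.19 in KO (log2 fold change 1.87 ± 0.15, SE, n = 2 per group; edgeR adjusted p = 8.29e-24). Its H3K4me1 rose with it, from 15.1 and 15.5 CPM to 39.9 and 39.6. At Arid3a the KO libraries lay above the WT libraries for H3K4me1 too, while for H3K27ac the rule required groups that do not overlap. Other rises by the same rule were 2.11 near Fcgr3, 1.96 near Pisd-ps2, 1.85 near Cxxc5, a CXXC zinc finger gene, 1.63 near Poll, a DNA repair polymerase, 1.57 near Galnt2, 1.53 near Rasl10a and 1.51 near Pabpn1l on the log2 scale. Sema4b, a semaphorin gene, had a member of 4586 bp with 5.69 and 5.51 CPM in WT and 14.6 and 15 in KO (log2 fold change 1.40), with H3K4me1 that did not pass the test.

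The largest loss named by the rule among low-input members was 2272 bp from Ywhaz, which encodes the adaptor protein 14-3-3 zeta. The region (chr15:36722479-36724412) had 5.57 and 5.8 CPM in WT and 0.919 and 1.29 in KO, a log2 fold change of -2.37 ± 0.19 (edgeR adjusted p = 2.5e-24). H3K4me1 fell there too, from 36.9 and 34.5 CPM to 4.62 and 4.47. The H3K4me1 libraries were separate between the groups at Ywhaz, while for H3K27ac the rule required this. Ezr, whose product ezrin ties the membrane to actin, had a member (chr17:7031708-7033289) with 4.01 and 3.89 CPM in WT and 1.21 and 1.6 in KO (-1.49 ± 0.19, edgeR adjusted p = 3.34e-11), and its H3K4me1 log2 fold change was -2.04. Kdm6b, a demethylase of H3K27me3, had a member (chr11:69223126-69224718) with 4.39 and 5.1 CPM in WT against 2.21 and 2.17 in KO (-1.11 ± 0.16, edgeR adjusted p = 7.72e-09). The further losses were -1.87 near Zfp958, -1.51 near Plekha2, -1.41 near Iqsec1, -1.37 near Nfatc3, a calcium-regulated transcription factor, -1.19 near Ldoc1l, -1.14 near Slc12a3 and -1.11 near Spock2. H3K4me1 was lower as well at these 10 named losses, with log2 fold changes from -2.97 at Ywhaz to -0.38 at Iqsec1.

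**Figure D2:**
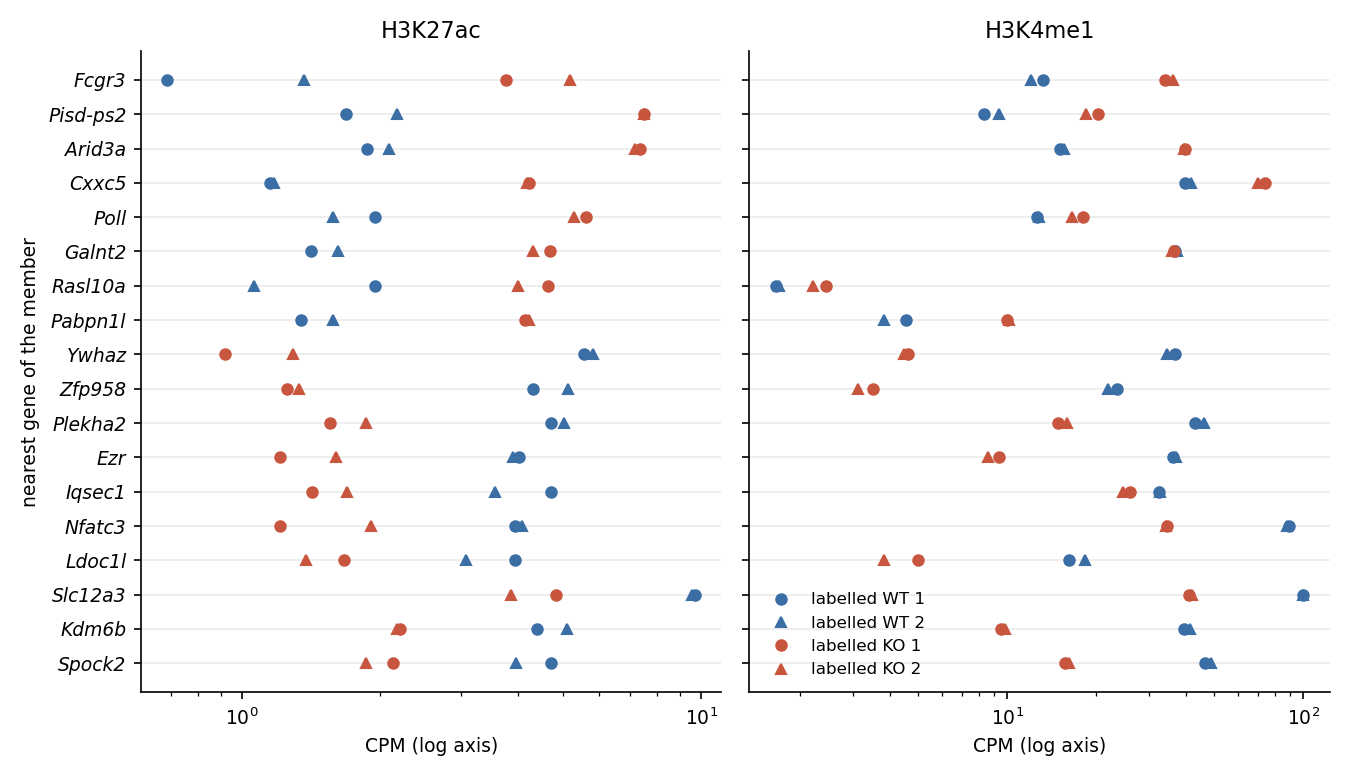
H3K27ac (left) and H3K4me1 (right) in CPM on log axes at 18 named low-input members, with each WT and KO library as a point. At Arid3a both marks were higher in KO, and at Ywhaz both marks were lower in KO.

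Over all members the same rule named mostly dense-input regions. Rises included Rpp21 (2.44 and 2.31 CPM in WT, 11.7 and 12.8 in KO, log2 fold change 2.36), Gtpbp4 (2.17), Nemf (1.85), Ezh2 (1.79), Tmem125 (1.71), Rn4.5s (1.62), Smo (1.58) and Zfp825 (1.58), with Fcgr3 and Sema4b the only low-input entries. Losses were led by Snx10, from 61.5 and 63.1 CPM to 19 and 21.7 (-1.62), and Wdr96, from 174 and 180 to 65.1 and 66.1 (-1.43). All 10 named losses had dense input, from 519 WT input reads per kb near Lipc to 83400 near Zbtb46.

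Part of the 145 dense-input members called higher lay in blocks. They were nearest to 75 genes, of which 8 had 3 or more and 4 together had 53, whereas the 1215 called lower were nearest to 1124 genes. All 17 members assigned to Mir101c, at the start of chromosome 9 (chr9:3000836-3035487), rose, with log2 fold changes of 2.32 to 3.36. Their summed H3K27ac was 580 and 561 CPM in WT and 3710 and 3800 in KO. KO input was also higher in that block, by 1.17 to 1.31 times the WT input after scaling to library totals over the 5 factor tables, against 1.02 to 1.14 times over all members above 1000 reads per kb. The block was not taken out of that comparison class. All 16 dense-input members at Rn4.5s (chr6:47622767-47723185, median 1.60) and all 5 at the adjoining Ezh2 (chr6:47609429-47622645, median 1.32) rose, as did 12 of 13 at Gas8 (chr8:126068601-126101831, median 0.57) and 8 of 8 at Snord116 (median 2.27). The part of copy number or repeat content in these values was not tested.

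Median H3K4me1 change differed less between the input classes. Genome-wide, 6.44% of 179582 tested H3K4me1 regions were called higher and 9.98% lower. Of the 4129 H3K4me1 regions overlapping members, 591 rose (14.3%) and 1138 fell (27.6%); their median change was -0.03 on the log2 scale. At dense-input members 256 rose and 449 fell of 2290 (median -0.02), and at low-input members 335 rose and 689 fell of 1839 (18.2% and 37.5%, median -0.08). The H3K4me1 losses at low-input members grew with width: 33% of regions under members of 500 to under 1000 bp fell, 64.7% at 1000 to under 2000 bp and 72.2% from 2000 bp, where regions also hold more reads. Of the 689 losses, 539 stayed called under DESeq2, background scaling and library totals alike.

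Under TMM scaling more low-input members rose than fell in H3K27ac while more H3K4me1 regions fell than rose. With background scaling both marks had more losses (H3K27ac 410 higher and 507 lower, H3K4me1 277 and 735), and input-subtracted H3K27ac was even. Counting members rather than H3K4me1 regions, 249 gained both marks and 173 lost both, while 132 gained H3K27ac and lost H3K4me1 and 15 did the reverse. Pearson's r between the 2 log2 fold changes was 0.603 and Spearman's rho 0.485 over 2158 low-input members, and 0.357 and 0.0839 over 2167 dense-input members. These are descriptions: 734 members share 304 H3K4me1 regions, and H3K27ac and H3K4me1 were each measured in 4 libraries. Among H3K4me1 regions named by rule, the strongest losses at low-input members were at Tex14 (15.9 and 17.8 CPM in WT, 1.4 and 0.523 in KO, log2 fold change -4.14) and Tank (17.2 and 16 CPM in WT, 1.46 and 2.03 in KO, -3.23). The strongest gains were at Cbx8, a Polycomb subunit gene (1.18 and 1.42 CPM in WT, 7.6 and 5.4 in KO, 2.30), and Med13l, a Mediator kinase module gene (1.22 and 1.73 in WT, 6.32 and 6.74 in KO, 2.12). The rule took only called regions with non-overlapping groups, so the WT and KO libraries are apart in these 4 regions by selection.

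**Figure D3:**
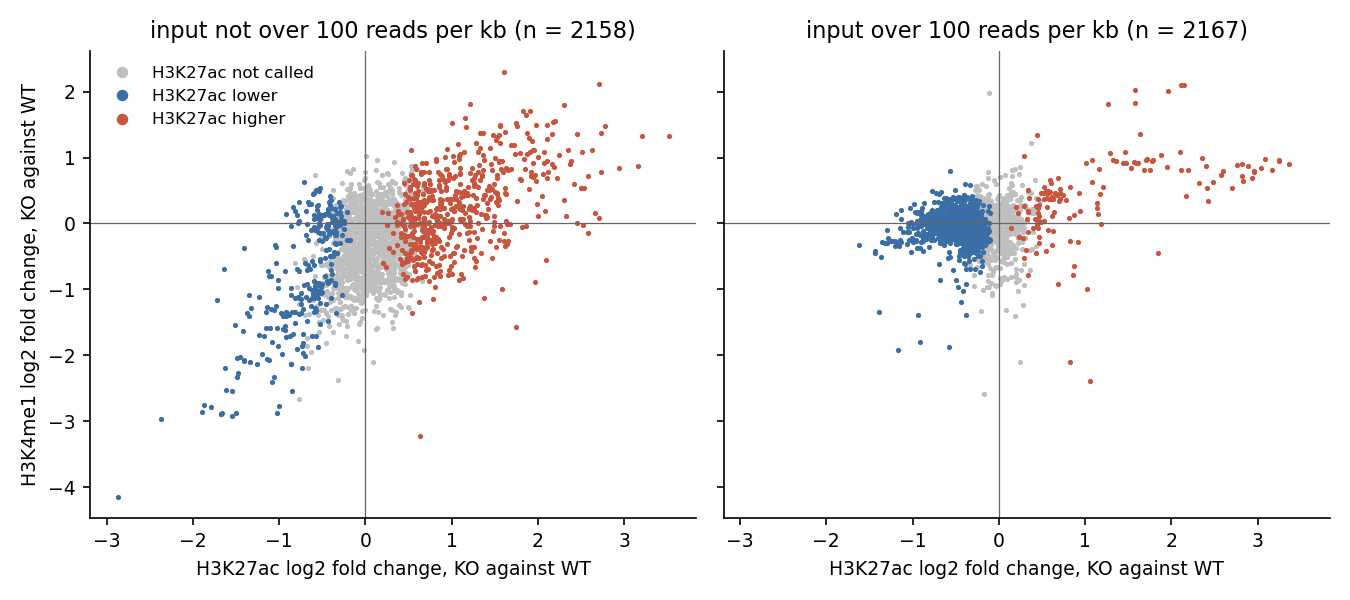
Log2 fold change (KO over WT) of H3K4me1 against that of H3K27ac, a point per member, for low-input members (left) and dense-input members (right). The low-input points stretch along the diagonal (r = 0.603), with 249 members called higher in both marks and 173 lower in both.

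B lineage transcription factors had 71 members near 20 list genes, of which 18 rose in H3K27ac and 12 fell. The lists were chosen with results of these data known, so the counts describe and carry no test; at low input they are to be read against the 26.2% of all such members that rose and 12.4% that fell in H3K27ac, and the 18.2% and 37.5% of H3K4me1 regions. Without dense input, 17 of 54 rose and 3 fell (median 0.15, against 0.12 over all low-input members), while their 39 H3K4me1 regions included 8 rises and 15 losses. Bcl11a, a zinc finger repressor needed for early B cells, had the largest rise. Its member at chr11:24144420-24145015 had 0.267 and 0.404 CPM in WT and 2.13 and 2.17 in KO (2.66 ± 0.31, edgeR adjusted p = 3.99e-13), and its neighbour at chr11:24143231-24144132 had 0.878 and 0.844 in WT and 2.92 and 2.44 in KO (1.64). The remaining low-input Bcl11a member hardly differed (0.13). All 3 lie 165174 to 173933 bp from Bcl11a, and H3K4me1 was not called higher at any of them.

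Klf2, which restrains cell cycle entry and guides lymphocyte migration, had 3 of 3 low-input members called higher. The widest (chr8:74876342-74878287) had 3.36 and 3.85 CPM in WT and 7.85 and 6.97 in KO (1.04 ± 0.13, edgeR adjusted p = 1e-11), and the other two had log2 fold changes of 1.14 and 1.14. They lie 26449 to 35993 bp downstream of Klf2, inside an annotated gene body. Foxo1, the factor that drives Rag expression in pre-B cells, had 2 of 3 low-input members higher. The intronic member (chr3:52132079-52133441) had 2.9 and 2.53 CPM in WT and 5.22 and 5.1 in KO (0.93), with H3K4me1 of 12.7 and 10.1 against 22.2 and 23.1 CPM, and the second Foxo1 member rose by 1.27. KO libraries were above WT at both.

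Irf8, which with Irf4 promotes pre-B cell differentiation, showed how uneven members near 1 gene could be. Its most acetylated member (chr8:123270422-123271955) had 9.16 and 9.36 CPM in WT and 8.39 and 7.99 in KO (-0.18, edgeR adjusted p = 0.249). A weak intronic member (chr8:123263398-123263964) rose from 0.344 and 0.587 to 1.34 and 1.86 CPM (1.76), as did the one 22798 bp away (1.46), and the other 5 low-input Irf8 members were not called. Bach2, a repressor that keeps B cells from plasma cell fate, had 3 of 6 low-input members higher by 0.72, 0.65 and 0.52. All 3 lie 187028 to 194718 bp upstream of Bach2 and inside an annotated gene body, and a dense-input Bach2 member fell (-0.91), together with its H3K4me1 (-1.80). Pou2f2, encoding Oct-2, had 1 of 4 low-input members higher (1.35), Fli1 2 higher and 1 lower of 8. Spib and Ets1 had none called of 3 and 4. The strongest Ets1 member had 21.1 and 21 CPM in WT and 19.3 and 18.8 in KO (-0.14, edgeR adjusted p = 0.154), with both KO libraries below both WT libraries but the difference short of the threshold.

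The pre-B receptor and immunoglobulin recombination list had 29 members, 10 higher and 6 lower in H3K27ac. Of 20 low-input members 9 rose and none fell (median 0.31), while 10 of their 15 H3K4me1 regions fell and 1 rose, beside shares of 26.2% higher in H3K27ac and 37.5% lower in H3K4me1 over all low-input members. Prkcb, the protein kinase C of B cell receptor signalling, had 3 of 4 higher, by 0.94 to 2.52. Its largest rise (chr7:129492795-129493299) was from 0.229 and 0.404 CPM to 1.55 and 2.17. At the member upstream of Blnk, the adaptor downstream of the pre-B receptor, H3K27ac rose from 1.15 and 1.21 to 3.09 and 3.06 CPM (chr19:41073887-41074856, 1.38, edgeR adjusted p = 1.86e-08). The H3K4me1 region it overlaps fell from 89.7 and 92.7 to 42.6 and 41.1 CPM (-1.13). Blnk promoter H3K4me1 was nearly the same, 87.4 and 90.5 CPM in WT and 43.7 and 42.1 in KO by library totals. That fall may therefore be the promoter's, and the marks were not compared over the same stretch. Cd79b, a signalling chain of the B cell receptor, had 2 of 4 higher (1.44 and 0.53). Xrcc6, encoding the end-joining protein Ku70, had 1 of 2 higher (1.58), and Dntt, the terminal transferase, 1 of 1 (0.57). None of the 4 low-input Pik3cd and 2 Il2ra members was called.

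Late and mature B cell genes had 29 members, 5 higher and 3 lower. Among 21 low-input members 4 rose and none fell (median 0.23), a share of rises below the 26.2% of all low-input members, and 10 of 17 H3K4me1 regions fell against 2 rises. The rises were at Tnfrsf13c, the BAFF receptor gene (0.458 and 0.404 CPM in WT, 1.59 and 1.33 in KO, 1.75), Cxcr4 (1.09), Cd38 (1.01) and Ccr7 (0.32). The strongest Cxcr4 member, upstream of the chemokine receptor gene that holds B cell precursors in the marrow (chr1:130520073-130520682), had 32.1 and 32.6 CPM in WT and 29.6 and 29.7 in KO (-0.13) and was not called. At Cr2, a mature B cell gene, a member had 24.5 and 24.1 against 22.6 and 25.2 CPM, with overlapping groups. Proliferation genes had 9 members, of which 4 rose, all at low input, and 3 fell. Ccnd3, the D cyclin of pre-B cell division, had 3 of 3 higher (2.08, 0.83 and 0.65), and E2f2 1 of 2 (1.03). The 0.65 member of Ccnd3 lost its call under background scaling, DESeq2 and input-subtracted counts and without 3 of the 4 libraries in turn.

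**Figure D4:**
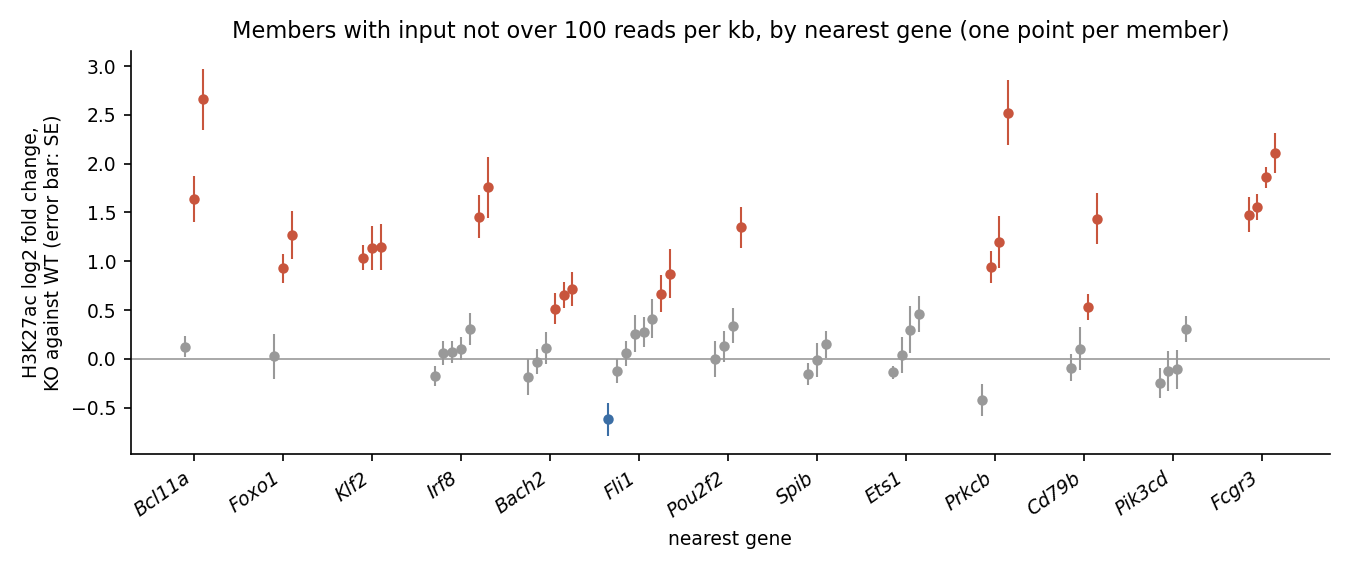
Log2 fold change of H3K27ac (KO over WT) ± SE for each member near 13 genes chosen after their values were seen, coloured by call. Ets1, Spib and Pik3cd show members spread around 0, while the Klf2 members all lie above 0, at 1.04 to 1.14.

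Chromatin regulator genes had 25 members with 11 rises and 10 losses, 5 of the rises being the Ezh2 block described above. At low input, 5 of 13 rose and 6 fell (median -0.23, against 0.12 over all low-input members). Smarca4, the ATPase of BAF remodelling complexes, had 2 of 3 lower (-0.88 and -1.17), all 3 inside an H3K4me1 region that fell from 84.3 and 86 to 24.7 and 27.3 CPM (-1.71). Kdm6b had 2 of 2 lower (-1.41 and -1.11). Tet2, a methylcytosine dioxygenase, fell by 0.46 on the log2 scale. The rises included 3 at Arid1b, which also had 1 loss, and a rise of 0.82 at Hdac7, a class IIa histone deacetylase gene. The cohesin, CTCF and BRWD1 list had 2 members, both near Nipbl, and the low-input one (chr15:8518433-8519845) fell from 2.94 and 2.61 to 1.25 and 0.932 CPM (-1.33). At housekeeping genes there were 3 members, all near Ywhaz and all called lower, the dense-input one at a log2 fold change of -0.23.

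Markers of other lineages were few among the members. The T cell list had 10 members, 2 lower and none higher, and its 4 low-input members were all near Cd2 and not called. The erythroid and megakaryocyte list had 4 members, 1 higher (Gp9) and 2 lower. The myeloid list had 10, of which 7 rose and 1 fell, and at low input 6 of 7 rose (median 1.56). Of these, 4 were nearest to Fcgr3, a low-affinity Fc receptor gene, and 2 to Itgam, while the Csf1r member was not called (0.11). The widest Fcgr3 member (chr1:172993880-172996236) had 3.74 and 4.52 CPM in WT and 14.6 and 15.5 in KO (1.86 ± 0.10, edgeR adjusted p = 1.2e-38) and H3K4me1 of 11.7 and 11.1 against 36 and 35.5 CPM. Summed promoter H3K27ac of the 7 myeloid markers was 28.7 and 27.9 CPM in WT and 25.8 and 26.6 in KO, with Mpo and Elane at 0. Summed promoter H3K4me1 was 26.8 and 27.2 in WT and 33.3 and 32.1 in KO, with Mpo, Elane and Itgam at 0, and S100a8 gave most of both sums. Whether other cells in the sort take part in the Fcgr3 change was not tested.

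Grouping of members along the genome is given as description, with no comparison to other H3K27ac regions. Joined across gaps of up to 10000 bp, the 4325 members formed 3365 clusters, 490 of them with 2 or more members and 196 with 3 or more, and 3507 clusters across gaps of up to 5000 bp. The 2158 low-input members formed 1509 clusters, of which 350 held 2 or more (999 members) and 157 held 3 or more. The low-input cluster with the highest summed WT H3K27ac held 17 members at Lhpp and Fam53b (chr7:139877285-139931715). It had 85.4 and 86.9 CPM in WT and 86.8 and 85.5 in KO, with overlapping groups, 3 members higher and 2 lower. The H3K4me1 regions under the Lhpp cluster summed to 629 and 628 CPM in WT and 361 and 359 in KO. The widest members included Lhpp (8306 bp), Rn4.5s (7254), Fam53b (6407), Gpr56 (5237, log2 fold change 0.64) and Ptp4a3 (5044, 0.46). A single low-input member of 2390 bp at Laptm5, a lysosomal gene of haematopoietic cells, held nearly the same level as the whole Lhpp cluster, 85.5 and 85.9 CPM in WT and 81.4 and 83.1 in KO, and was not called.

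Genes with many low-input members did not move as blocks in general. Cxxc5 had 6 higher of 8, Il21r 5 higher of 8 (median 0.43) and Mir139 5 higher of 6 (median 0.97). Foxp1, a transcription factor of early B cells, leaned down with 4 lower and 1 higher of 9 (median -0.60), although 1 Foxp1 member rose by 1.96. Lhpp had 2 lower and none higher of 14. These genes were picked for their number of members, with values from -0.96 to 1.96 near Foxp1 alone.

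Cohesin loader and release signal was measured at the members that overlap a factor region, nearly all of them dense-input. The regions of each factor held every WT and KO peak of it, so a region could enter through the lists of a single genotype. For such a region a change follows from how it entered, so the factor counts here and below are description only. NIPBL regions lay at 1430 members (33.1%), 1399 of them dense-input. Genome-wide 0.995% of 61586 tested NIPBL regions were called higher and 0.63% lower, and at members 88 rose and 4 fell of 1570 (5.61% and 0.255%, median 0.19). Scaling to library totals gave 55 higher and 66 lower, with a median of -0.05 against -0.23 over all regions. The largest rise by rule was at Txndc11, with 35.7 and 22.3 CPM in WT and 123 and 101 in KO (1.95 ± 0.19, edgeR adjusted p = 0.00115). Rpp21, whose member also gained H3K27ac, rose from 30.7 and 19.7 to 83.4 and 71.7 CPM, and Cpne5 fell from 34.2 and 30.8 to 17.4 and 15.8 CPM (-0.97). Left-out libraries shrank the rises to 31 without KO replicate 1, 26 without KO replicate 2, 6 without WT replicate 1 and 3 without WT replicate 2, with no loss called in any of these, and input-subtracted counts gave none in either direction (386 of 1521 at unadjusted p under 0.05).

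WAPL regions lay at 2139 members (49.5%). Genome-wide 13.1% of 126089 were called higher and 27.6% lower, whereas at members 829 rose and 72 fell of 2370 (35% and 3.04%, median 0.40 against 0.07 over all regions). WAPL peak lists covered more dense-input members in KO (70.1% and 83.5%) than in WT (51.8% and 54.1%), so regions could enter through KO peaks alone. Fam53b had the largest rise by rule (chr7:139917112-139917252, 1.89 and 1.88 CPM in WT, 6.72 and 6.74 in KO, 1.83 ± 0.20, edgeR adjusted p = 0.0035). The count of rises rested on the KO pair: it was 11 without KO replicate 1 and 34 without KO replicate 2, but 1108 and 1154 without WT replicate 1 or 2. Losses numbered 24, 28, 138 and 131 in the same order.

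Counts of called cohesin subunit regions at members swung widely between settings. RAD21, the kleisin of the ring, had regions at 1325 members (30.6%). Genome-wide 2.3% of 84996 rose and 21.1% fell (median -0.39), and at members 111 rose and 24 fell of 1423 (median 0.65). No RAD21 call was left without WT replicate 1 or without WT replicate 2 (28 and 129 at unadjusted p under 0.05 in edgeR), while 979 and 772 rose and 91 and 69 fell without KO replicate 1 or 2. SMC3, a coiled-coil subunit, had regions at 728 members (16.8%). Genome-wide 22.1% of 77109 rose and 18.1% fell (median -0.22), and at members 300 rose and 31 fell of 804 (37.3% and 3.86%, median 0.43). SMC3 rises numbered 103 and 127 without KO replicate 1 or 2 and 421 and 447 without WT replicate 1 or 2, with 10, 11, 71 and 59 losses. Input-subtracted counts turned the SMC3 split to 97 higher and 132 lower.

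SMC3 regions at low-input members were few, and their rises cannot be separated from how the regions were chosen. The SMC3 regions held every WT and KO peak, so a region could enter through the KO lists alone, where it is high. For such a region the rise follows from how it entered, so the counts are description only. Of 70 tested, 38 rose (54.3%) and 3 fell (4.29%), beside 22.1% and 18.1% of all tested SMC3 regions. Their median was 1.95, with the KO libraries much shallower than the WT libraries. The largest rise by rule was at Vps18, an endosomal tethering gene (chr2:119124042-119124561), with 1.44 and 1.31 CPM in WT and 19.3 and 20.1 in KO (3.83). At Cd79b (chr11:106186949-106187650) SMC3 was 2.94 and 1.38 CPM in WT and 27.2 and 27.6 in KO (3.66). Whether the Vps18 or Cd79b region held a WT peak was not tested. The acetylation of that Cd79b member was 1.64 and 1.8 CPM in WT and 2.26 and 1.42 in KO (0.10) and was not called. Peak lists for SMC3 did not follow this: peaks lay at 1.11% and 1.25% of low-input members in WT and 1.16% and 1.02% in KO.

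CTCF regions lay at 1435 members (33.2%). Genome-wide 0.00792% of 75717 were called higher and 0.0317% lower, and at members 1 rose and 6 fell of 1566, with a median of -0.84 against -0.37 over all regions. The 121 CTCF regions at low-input members had a median of 0.67, with none called (6 at unadjusted p under 0.05 in edgeR), and the dense-input ones -0.87. The largest called changes were losses at dense-input members such as Hhat, with 1110 and 1560 CPM in WT and 638 and 521 in KO (-1.21). CTCF WT replicate 2 stood apart in depth. Without it 31 rose and 547 fell, without WT replicate 1 144 rose and 1207 fell, without KO replicate 1 1 rose and 2 fell, and without KO replicate 2 1 rose and none fell (the WT arm or KO arm then being a single library assumed to vary like the others).

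A few members gained both histone marks while cohesin-related signal fell. They are picked from the named members because they appear under several targets. At Zfp825 (chr13:74666406-74667206) H3K27ac rose from 6.3 and 5.47 to 17.5 and 17.7 CPM and H3K4me1 from 15.2 and 15.4 to 65.6 and 59.7. SMC3 there fell from 380 and 368 to 118 and 132 CPM (-1.58) and WAPL from 183 and 194 to 60.1 and 66.8 (-1.57). Smo, the Hedgehog signal transducer gene, had a member 12286 bp away (chr6:29697784-29698651) where H3K27ac rose from 13.1 and 13.8 to 39.6 and 41.1 CPM, H3K4me1 from 27.4 and 26.4 to 96 and 94.1, and WAPL fell from 220 and 227 to 65.5 and 76.9 (-1.65, edgeR adjusted p = 0.00142). At Pisd-ps2, a low-input member (chr17:3038092-3038950), H3K27ac rose from 1.68 and 2.17 to 7.52 and 7.5 CPM. RAD21 fell there from 31.7 and 31.6 to 12.8 and 7.51 (-1.64), SMC3 from 65.9 and 60.6 to 31.7 and 32.6 (-0.98) and WAPL from 25.5 and 38.3 to 9.75 and 10.8 (-1.64). The rule took only called regions with non-overlapping groups, so the separation of WT and KO libraries in these 3 members follows from the selection.

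Peak lists, called per library by the authors, extend the account to the ATP-depleted cells, whose read depth is unknown here. With 2 libraries against 2, the smallest p an exact permutation test allows is 0.333, so shares are given without a test. H3K27ac peaks covered 90% and 90.5% of members in WT and 77.4% and 77.4% in KO. Over all H3K27ac regions they covered 84% and 84% in WT and 63.6% and 64% in KO. At low-input members the shares were 81% and 81.8% against 56.2% and 56.5%, although CPM there leaned higher in KO under TMM scaling. All low-input H3K27ac regions, those without an input value included, had 77.8% and 77.9% against 50.4% and 50.9%. The H3K27ac KO lists are those whose peak names carry the H3K4me1 stem. The lists filed under H3K4me1 WT, which carry the H3K27ac knockout stem, covered 89.4% and 86.2% of low-input members, and H3K4me1 KO lists 79% and 79.1%. Among all low-input H3K27ac regions these were 39.6% and 35.8%, and 35.4% and 36.6%. H3K4me1 overlap was a criterion of the members.

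NIPBL peaks lay at 19.8% and 29% of members in WT, 4.69% and 3.61% in KO and 13.7% and 10.9% in ATP-depleted cells, with the name exchange stated above between the 3.61% and 19.8% lists. Over all H3K27ac regions the NIPBL shares were 9.08% and 15.8% in WT, 0.889% and 0.75% in KO and 5.72% and 4.02% after oligomycin. WAPL peaks lay at 26.8% and 27.9% in WT, 36.2% and 43.7% in KO and 4.49% and 6.08% after oligomycin. The WAPL shares over all regions were 14.9% and 15.2%, 20.4% and 25.8%, and 1.22% and 1.76% in the same order. RAD21 peaks lay at 3.91% and 5.46% in WT, 10.5% and 28.1% in KO and 11.3% and 8% after oligomycin. The RAD21 shares over all regions were 1.46% and 2.26%, 3.08% and 12.6%, and 3.46% and 2.11%. CTCF, which has no oligomycin library in the series, had peaks at 3.35% and 31.1% in WT and 2.77% and 3.14% in KO. The 31.1% belongs to the deep WT library. The CTCF shares over all regions were 0.749% and 16.9% in WT and 0.648% and 0.752% in KO.

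SMC3 peaks lay at 14.2% and 13.9% of members after oligomycin, 5.43% and 14.7% in WT and 3.58% and 2.89% in KO, so the oligomycin and WT libraries overlapped. Over all H3K27ac regions the shares were 4.04% and 4.19% after oligomycin and 2.38% and 6.28% in WT, which overlap too. The ATP-depleted SMC3 lists held 40667 and 39437 peaks and the WT lists 41044 and 64033. Wide regions at promoters (1190) stood apart: 46.0% and 42.4% held an SMC3 peak after oligomycin, against 1.93% and 3.7% in WT and 3.53% and 4.12% in KO.

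Shares after oligomycin are not compared with WT or KO within the input classes, because the classes were built on the factor tables. All WT and KO SMC3 peaks lay inside a region of the SMC3 table, but only 44.9% and 47.4% of the ATP-depleted peaks did. The 1922 members without an input value therefore hold no WT or KO peak of the 5 factors by construction, whereas 206 and 168 of them held an ATP-depleted SMC3 peak. For RAD21 80.5% and 32.7% of the ATP-depleted peaks lay inside its table, for NIPBL 91.5% and 94.2%, and for WAPL 93.4% and 96.1%.

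**Figure D5:**
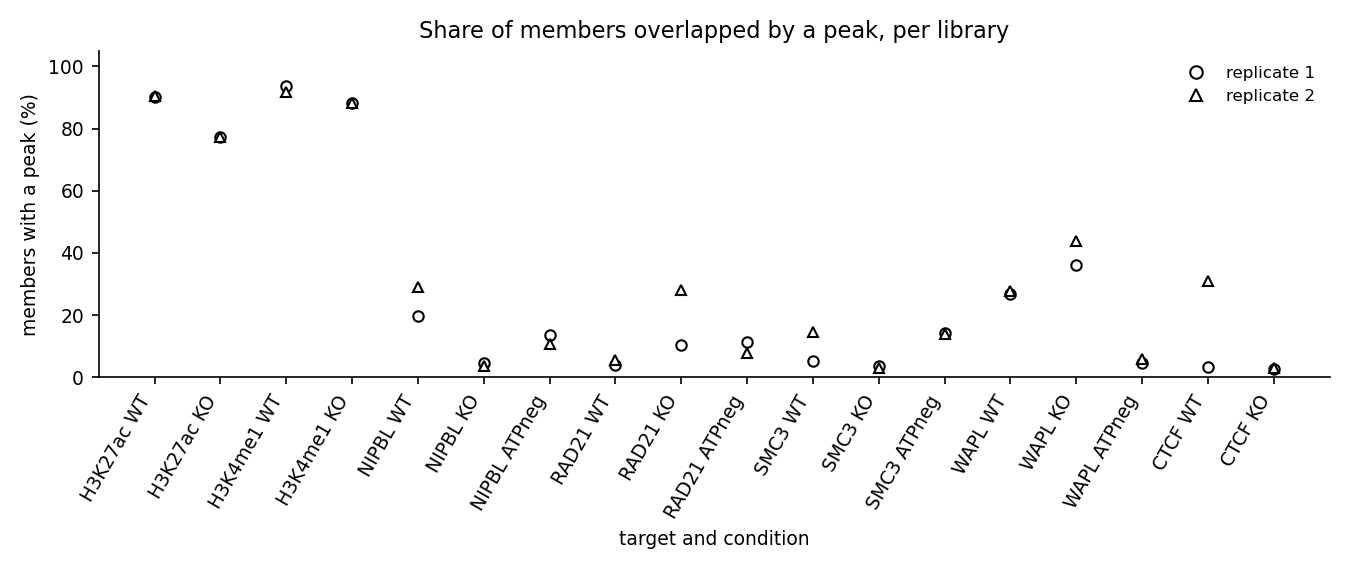
Percent of all 4325 members holding a peak of each target in each library, with WT, KO and ATP-depleted (oligomycin, ATPneg) libraries as points. Of the WAPL libraries those after oligomycin have the lowest shares (4.49% and 6.08%), and the SMC3 shares after oligomycin (14.2% and 13.9%) lie within the WT range of 5.43% to 14.7%.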

How the data were processed

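Reads were aligned with BWA, duplicates handled with Picard, peaks called with MACS2, regions merged with bedtools, reads counted with featureCounts and tests run with edgeR, per the submitters' processing notes, on mm9. Versions, aligner parameters and the exact role of each tool are not given in the sources used here. The deposited tables hold raw counts per merged region and library, which the authors did not normalize in the columns used. The peak lists hold the MACS2 score of each peak, per the file headers, with a lowest score near 5. The histone tables also hold 2 per-sample input columns, which belong to no sample of the series and were not used.

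Counts of all regions of a target were tested with edgeR 4.0.16 (TMM, filterByExpr, glmQLFTest, Benjamini-Hochberg over all tested regions, adjusted p under 0.05), KO against WT, 2 libraries each. CPM values use TMM-scaled totals. Members were joined to other targets by overlap of at least 1 bp. Python 3.11.15 with pandas 2.3.3 and R 4.3.3 were used. The test script was checked on simulated data. Alternatives tried were scaling to library totals, scaling to background regions (those in the lowest 25% by mean CPM), DESeq2 1.42.0, no filter, input-subtracted counts, a replicate block and leaving out each library. The split by input was chosen after seeing the data.

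Named members were, by rule, the 10 largest called rises and losses in the more acetylated part of the members with non-overlapping groups. The rule also took up to 3 members per gene list, the widest members, the strongest clusters and the members next to each limit. For each other target it took up to 4 called regions per direction, with mean signal at or above the median and non-overlapping groups. Other members named beside a count were chosen after their values were seen. The members and lists were chosen with earlier results of these data known. No genome of the mm9 build was used here, so no region sequence is shown and the planned motif and base composition counts were not run. Some members that these rules name are not reported here.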

Additional observations from a re-analysis of the deposited data

How the results depend on the processing

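Counts below are regions at members called higher / lower in KO. For H3K27ac, against 710 / 1482, DESeq2 gave 341 / 888, low-input members alone 565 / 267, and leaving out a library 566 to 606 / 1208 to 1280. For H3K4me1, against 591 / 1138, DESeq2 gave 280 / 739, low-input members alone 335 / 689, and leaving out a library 432 to 509 / 952 to 1060. At low-input members H3K27ac gave 236 / 70 under DESeq2, 410 / 507 under background scaling, 430 / 432 from input-subtracted counts and 439 to 472 / 169 to 206 with a library left out. At dense-input members leaving out a library gave 126 to 134 / 1039 to 1074. H3K4me1 at low-input members gave 175 rises under DESeq2 and 264 to 297 / 623 to 655 with a library left out. At dense-input members it gave 423 rises with library totals, 166 with background scaling, 105 / 200 under DESeq2 and 164 to 212 / 321 to 405 with a library left out.

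NIPBL (88 / 4) gave 55 / 66 with library totals, 335 / 2 with background scaling, 2 losses under DESeq2, 0 / 0 from input-subtracted counts, 1 / 0 at low-input members and 3 to 31 / 0 to 0 with a library left out. RAD21 (111 / 24) gave 579 rises under DESeq2, 0 / 5 at low-input members and 0 to 979 / 0 to 91 with a library left out. Background scaling, no filter and input-subtracted counts each gave RAD21 0 / 0 in edgeR, with 1122, 493 and 524 regions at unadjusted p under 0.05. SMC3 (300 / 31) gave 17 losses with library totals, 492 / 11 with background scaling, 97 / 132 from input-subtracted counts, 38 / 3 at low-input members and 103 to 447 / 10 to 71 with a library left out. WAPL (829 / 72) gave 1781 / 40 with background scaling, 439 rises under DESeq2, 538 from input-subtracted counts, 20 / 6 at low-input members and 11 to 1154 / 24 to 138 with a library left out. CTCF (1 / 6) gave 0 / 0 with library totals, background scaling, DESeq2 and input-subtracted counts (162, 110, 15 and 156 at unadjusted p under 0.05), 0 / 2 with no filter, 0 / 0 at low-input members and 1 to 144 / 0 to 1207 with a library left out. The cause of these moves was not tested, and the input-subtracted and low-input settings test fewer regions.

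The replicate numbers were not shown to pair the libraries: deviations of same-numbered libraries correlated at -0.217 for CTCF and -0.0608 to 0.0299 for the other targets over all regions, and at 0.116 for NIPBL at the members. With the number as a replicate block the counts were 727 / 1502 for H3K27ac, 604 / 1149 for H3K4me1, 314 / 22 for NIPBL, 0 / 0 for RAD21 (291 at unadjusted p under 0.05), 284 / 29 for SMC3, 721 / 66 for WAPL and 1 / 0 for CTCF.

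With a width of at least 1000 bp, 29.0% of 818 members rose in H3K27ac and 25.8% fell (median 0.03). Requiring peak scores of at least 2 times the lowest left mean shares of 13.7% (NIPBL WT), 2.27% (NIPBL KO), 6.8% (NIPBL after oligomycin), 1.61% (RAD21 WT), 4.97% (RAD21 after oligomycin), 1.61% (SMC3 KO), 6.07% (SMC3 after oligomycin), 15.5% (WAPL WT), 26.5% (WAPL KO) and 2.62% (WAPL after oligomycin), and 50% overlap left 10.8% for SMC3 after oligomycin. Of 93 named members, 84 kept their side of the threshold under DESeq2, 81 under background scaling, 86 with library totals and 89 with each library left out in turn, and none changed direction while called. For NIPBL, RAD21 and SMC3, lower depth in KO than in WT limits the comparison.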
